A study of Mus musculus with 6 samples.

Results

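Bone morphogenetic protein (BMP) signals were examined through 10 genes in stellate cells of the mouse liver, the pericytes of the sinusoid that store retinoids, kept for 1 day in primary culture. The genes were taken by symbol as a fixed set, namely the ligands Bmp2, Bmp4 and Bmp6, the receptor Bmpr2, the decoy receptor Bambi, the inhibitory SMADs Smad6 and Smad7, and the targets Id1, Id2 and Id3. They are 10 of the 17909 genes listed in at least 1 library. Cells of the HAS2_Tg group came from 24-week-old male C57BL/6 mice that carry a human HAS2 transgene under the alpha smooth muscle actin promoter (replicates 4, 5 and 6). Cells of the Has2_KO group came from male C57BL/6 mice of the same age in which floxed Has2 was deleted by Lrat-Cre (replicates 7, 8 and 9). HAS2 makes hyaluronan, a polysaccharide of the matrix. The transgene promoter is active in activated stellate cells and smooth muscle, and Lrat-Cre recombines in stellate cells. Cells of both groups were isolated by collagenase and pronase perfusion and a Nycodenz gradient, depleted of macrophages with Cd11b microbeads, allowed 4 h to attach and kept for a further 14 h in 10% serum. No wild-type or transgene-free cultures were analysed here, so each difference is between the transgenic and the knockout cells and cannot be assigned to one of them. The labels do not say whether the libraries of a group came from separate mice, so p-values measure the spread between these libraries.

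BMP ligands bind a complex of type I and type II receptors that phosphorylates SMAD1, SMAD5 and SMAD9, which enter the nucleus with SMAD4 and switch on genes such as Id1, Id2, Id3, Smad6 and Smad7. ID proteins are helix-loop-helix proteins without a DNA-binding region and capture the E proteins Tcf3, Tcf4 and Tcf12. Smad6 and Smad7 feed back on the receptors, and Bambi resembles a type I receptor without a working kinase. In the liver, endothelial cells are a known source of Bmp2 and Bmp6, which instruct hepatocytes to make the iron hormone hepcidin, and stellate cells are a known source of Gdf2 (BMP9) and Bmp10.

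The 3 genes printed here as sequence are Id2, Id3 and Smad6, BMP targets that were all higher in HAS2_Tg. Their promoters were among those examined and are in the RefSeq table (GRCm38, the assembly that mm10 names). Each line gives the 250 bases before the transcription start, 5′ to 3′ on the gene's strand. Capitals mark GGCGCC, the palindromic GC-rich motif bound by BMP-activated SMADs, and its variant GGAGCC, read on both strands (GGCTCC on the other strand).
Id2: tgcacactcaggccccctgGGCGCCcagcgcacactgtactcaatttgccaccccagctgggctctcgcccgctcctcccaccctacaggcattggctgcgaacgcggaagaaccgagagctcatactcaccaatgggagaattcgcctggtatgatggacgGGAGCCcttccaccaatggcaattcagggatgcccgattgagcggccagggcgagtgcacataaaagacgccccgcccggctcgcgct
Id3: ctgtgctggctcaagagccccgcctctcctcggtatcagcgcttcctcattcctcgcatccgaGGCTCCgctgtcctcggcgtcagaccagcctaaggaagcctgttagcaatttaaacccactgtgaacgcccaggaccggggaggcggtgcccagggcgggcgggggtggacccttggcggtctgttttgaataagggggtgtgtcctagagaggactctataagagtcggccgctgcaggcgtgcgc
Smad6: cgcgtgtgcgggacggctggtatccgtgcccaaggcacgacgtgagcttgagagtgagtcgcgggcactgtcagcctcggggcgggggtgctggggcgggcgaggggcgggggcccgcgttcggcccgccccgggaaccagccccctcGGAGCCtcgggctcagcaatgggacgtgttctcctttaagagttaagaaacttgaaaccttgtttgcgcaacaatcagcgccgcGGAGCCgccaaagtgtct
The Id2 window lies at chr12:25096093-25096342 on the minus strand, that of Id3 at chr4:136143572-136143821 on the plus strand and that of Smad6 at chr9:64022060-64022309 on the minus strand. Id2 held GGCGCC from 231 to 226 bases before the start and GGAGCC from 88 to 83. Id3 held the variant on the opposite strand from 187 to 182 bases before the start, and Smad6 held it from 102 to 97 and from 18 to 13. Promoters were examined for 6 of the 10 genes. Bmp2 and Id1 had no promoter entry. Bambi and Smad7 were left out of the promoter search, although Smad7 is also a target that was higher in HAS2_Tg. Of the 6 windows examined, 5 held GGCGCC or GGAGCC, against 31.7% of 32851 promoter windows of the same length. The window without either was that of Bmp6, while those of Bmp4, which was higher in HAS2_Tg, and Bmpr2, which did not pass the test, each held 1 copy. GGCGCC followed after 5 free bases by GTCT, the SMAD4 site, was in 0.07% of all windows, GGAGCC followed in the same way was in 0.107%, and neither composite was in any of the 6. GC content was 62.8% in Id2, 62.8% in Id3 and 66.8% in Smad6. The share of 31.7% over all windows was not matched for GC content, and enrichment was not tested. A match describes the letters and is not a measured site.

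Library totals lay between 11961726 and 12423220 expected counts. Has2 had 847, 889 and 835 counts in HAS2_Tg and 1 count in each Has2_KO library, which fits the knockout label and does not test the human transgene. Stellate cell markers were abundant in both groups, with 16 of 16 listed and a summed level of 11428 to 12356 CPM (counts scaled to library size, adjusted by the trimmed mean of M values, TMM) in HAS2_Tg and 8004 to 8421 CPM in Has2_KO. Of these 16, 11 were higher and 1 lower in HAS2_Tg. Liver endothelial markers summed to 25.7 to 28.8 CPM in HAS2_Tg and 1119 to 1213 CPM in Has2_KO, with 20 of 20 lower in HAS2_Tg. Emcn and Gpihbp1 had no count in any HAS2_Tg library, and Cdh5, the endothelial cadherin, averaged 1.76 CPM in HAS2_Tg and 402.3 CPM in Has2_KO. Macrophage markers summed to 16.3 to 18.6 CPM in HAS2_Tg and 712.3 to 768.0 CPM in Has2_KO, with Clec4f and Timd4 at 0 in every HAS2_Tg library. Hepatocyte markers summed to 25.3 to 27.2 CPM in HAS2_Tg and 64.0 to 82.0 CPM in Has2_KO, with 9 of 10 tested lower in HAS2_Tg. The exception, Trf, averaged 22.1 CPM in HAS2_Tg and 25.6 CPM in Has2_KO, and so made up most of the HAS2_Tg sum. Alb averaged 0.88 CPM in HAS2_Tg and 23.4 CPM in Has2_KO. Portal fibroblast and smooth muscle markers summed to 12294 to 14996 CPM in HAS2_Tg and 2983 to 3051 CPM in Has2_KO. Markers of cholangiocytes, neutrophils, mesothelium, B cells and T and NK cells summed to at most 34.9 CPM in any HAS2_Tg and 48.7 CPM in any Has2_KO library. Fewer cells of a type and less RNA per cell cannot be told apart in these bulk libraries.

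All 10 genes passed the low-count filter. In HAS2_Tg, 6 were higher and 3 lower than in Has2_KO (edgeR's quasi-likelihood test, adjusted p under 0.05), and Bmpr2 did not pass. Over all 13014 genes tested, 40.7% passed, 20.2% as higher and 20.5% as lower in HAS2_Tg. CPM values of the groups did not overlap for 9 of the 10, against 52.2% of all genes tested. The median log2 fold change (HAS2_Tg minus Has2_KO) was 0.40 over the 10 genes and -0.01 over all genes tested. The 3 ligands were the genes among the 10 that changed by at least 2-fold, as did 11.2% of all genes tested. Scaling bears on the smaller changes. With total counts in place of TMM, all log2 fold changes shifted by a median of -0.17, and the share of called genes that were higher in HAS2_Tg was 23.4% in place of 49.6%. Of the 10 genes, 4 were then higher and 4 lower, while 11.3% of all genes tested were higher and 37.1% lower.

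**Figure D1:**
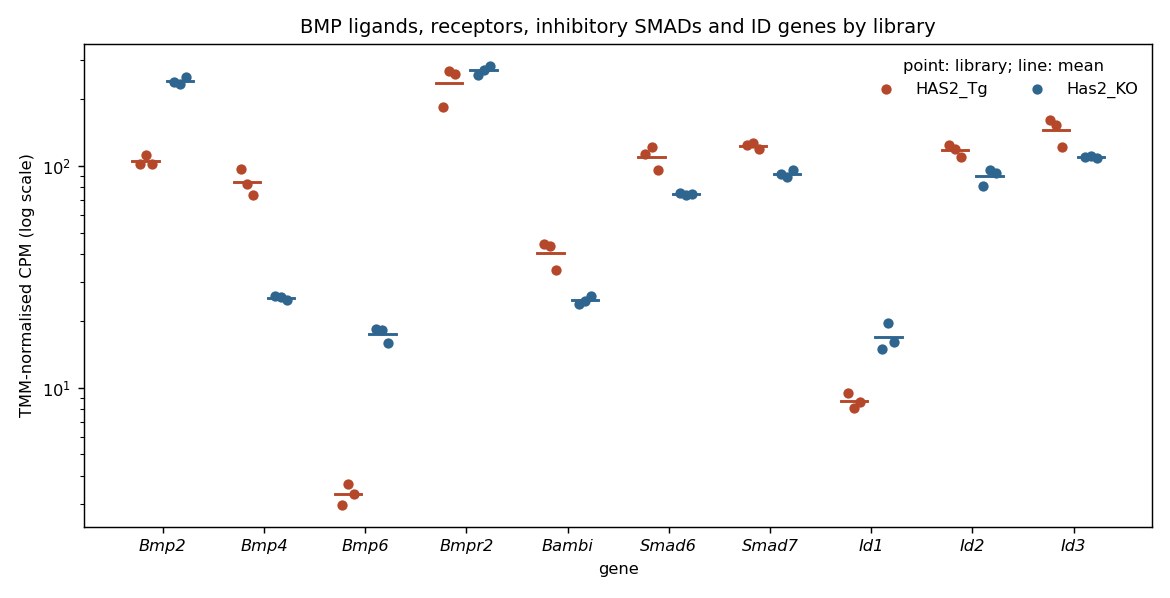
TMM-normalised CPM (log axis) of the 10 genes in each library, with HAS2_Tg left of Has2_KO for each gene. Points are libraries and lines are group means of 3. Bmp2, Bmp6 and Id1 lie lower in every HAS2_Tg library, Bmp4 and the other called genes lie higher, and Bmpr2 overlaps.

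Among the ligands, Bmp4 was higher in HAS2_Tg, while Bmp2 and Bmp6 were lower. Bmp4, a ligand that shapes mesenchyme in development, stood at 97.0, 82.4 and 74.2 CPM in HAS2_Tg, against 25.8, 25.5 and 24.7 CPM in Has2_KO. Every HAS2_Tg library exceeded every Has2_KO library, and the lowest of them, replicate 6, was still far above. The log2 fold change of Bmp4 was 1.74 (SE 0.10, adjusted p = 2.78e-09), a 3.34-fold higher level. Portal fibroblast and smooth muscle markers were higher in sum in the same libraries (8 of 12 tested genes higher and 3 lower). Acta2, Tagln and Myh11 had the highest levels on that list. Their means were 5904, 5499 and 1270 CPM in HAS2_Tg and 1196, 1347 and 108 CPM in Has2_KO. The sum mainly follows these 3 genes and is not a measure of portal fibroblasts. The 3 lower genes, chosen after their values were seen, were Cd34, Thy1 and Fbln2. The part of these markers in the Bmp4 difference was not tested.

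Bmp2, which signals to hepatocytes and bone among other tissues, had 102.3, 111.6 and 101.7 CPM in HAS2_Tg, against 237.7, 234.6 and 252.6 CPM in Has2_KO. The groups were well apart and the libraries of each lay close together. Its log2 fold change was -1.20 (SE 0.08, adjusted p = 7.13e-09), so the level in HAS2_Tg was 2.30-fold lower. Bmp6, the main iron-regulated BMP of the liver, had the lowest FPKM of the 3 ligands in each group. It stood at 2.96, 3.66 and 3.32 CPM in HAS2_Tg, against 18.4, 18.1 and 15.9 CPM in Has2_KO. These values rest on 33, 42 and 38 counts in HAS2_Tg and 242, 239 and 209 counts in Has2_KO. Bmp6 had the largest change of the 10 genes, with a log2 fold change of -2.39 (SE 0.14, adjusted p = 3.36e-09). Endothelial and macrophage markers were lower in the same libraries, and their part in the Bmp2 and Bmp6 differences was not tested.

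Per unit of length, the make-up of the 3 ligands differed between the groups. Of the summed FPKM of Bmp2, Bmp4 and Bmp6 (fragments per transcript length and library depth), Bmp4 took 57.9% ± 3.67 in HAS2_Tg and 14.6% ± 0.61 in Has2_KO (SD, n = 3 each). Bmp2 took 40.2% ± 3.38 in HAS2_Tg and 77.1% ± 1.40 in Has2_KO, and Bmp6 took 1.89% ± 0.28 in HAS2_Tg and 8.31% ± 0.80 in Has2_KO. In FPKM, Bmp4 was 1.71, 1.33 and 1.31 times Bmp2 in HAS2_Tg and 0.195, 0.196 and 0.176 times Bmp2 in Has2_KO, so Bmp4 led in each HAS2_Tg library and Bmp2 in each Has2_KO library. Such ratios within a library do not depend on library scaling. The summed FPKM of the 3 was 68.8 ± 5.36 in HAS2_Tg and 92.7 ± 1.88 in Has2_KO.

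**Figure D2:**
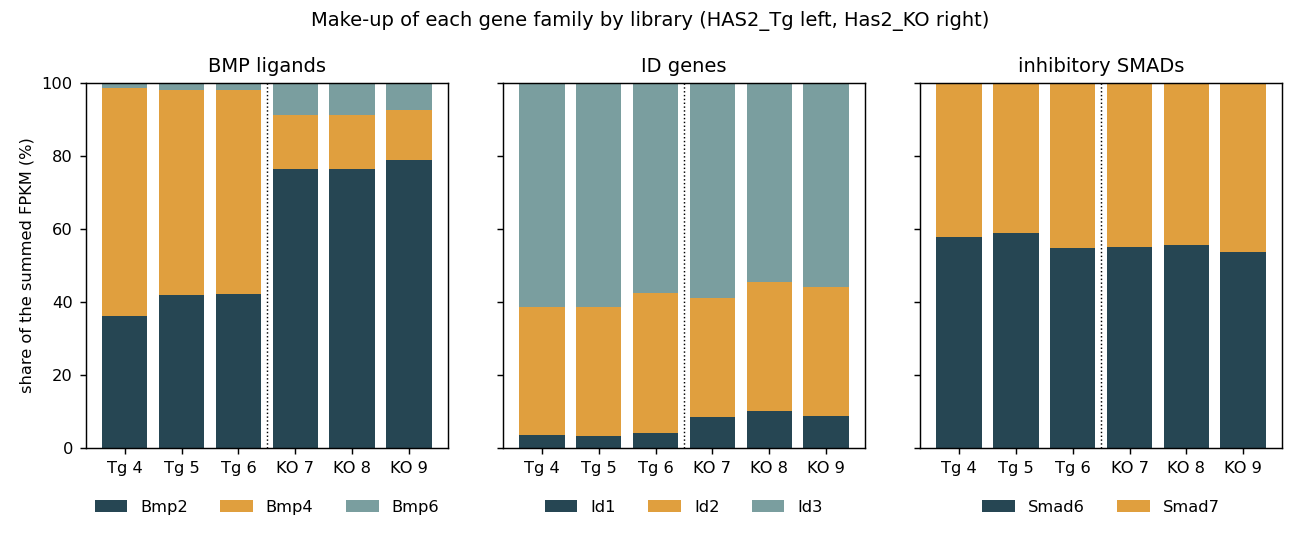
Share of the summed FPKM (percent, vertical axis) that each gene took within the BMP ligands, the ID genes and the inhibitory SMADs, 1 bar per library with HAS2_Tg left. Bmp4 takes 57.9% of the ligand sum on average in HAS2_Tg and 14.6% in Has2_KO, Id1 takes 3.85% of the ID sum in HAS2_Tg and 9.22% in Has2_KO, and Smad6 takes 57.1% of the SMAD sum in HAS2_Tg and 54.8% in Has2_KO.

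The other BMP and GDF ligands, from a list of 12 of which 10 were listed and 6 tested, were higher in 4 cases and lower in none. Of all genes tested, 20.2% were higher and 20.5% lower. Gdf6, a ligand known from joint and skeletal patterning, had 157.2, 128.2 and 138.2 CPM in HAS2_Tg, against 43.3, 41.3 and 41.5 CPM in Has2_KO, with a log2 fold change of 1.75 (SE 0.09, adjusted p = 5.66e-10). Gdf10 had 1.38 (SE 0.08), Gdf2 1.07 (SE 0.07) and Bmp5 0.63 (SE 0.07) on the log2 fold change scale. Mean levels of the liver ligand Gdf2 were 549.1 ± 25.8 CPM in transgenic and 261.5 ± 7.09 CPM in knockout libraries, and those of Bmp5 were 619.3 ± 36.9 CPM in transgenic and 400.9 ± 14.5 CPM in knockout libraries (SD, n = 3). Bmp10, chosen after its values were seen, had 333.1, 489.6 and 638.3 CPM in HAS2_Tg and 320.0, 326.7 and 316.2 CPM in Has2_KO. Its groups did not overlap, the transgenic libraries were widely spread, and it did not pass (log2 fold change 0.60, SE 0.22, adjusted p = 0.0754). For Bmp10 single transgenic libraries decide the call, since it passed without HAS2_Tg replicate 4 (0.81, adjusted p = 1.07e-07) and without HAS2_Tg replicate 6 (0.36, adjusted p = 0.0366).

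**Figure D3:**
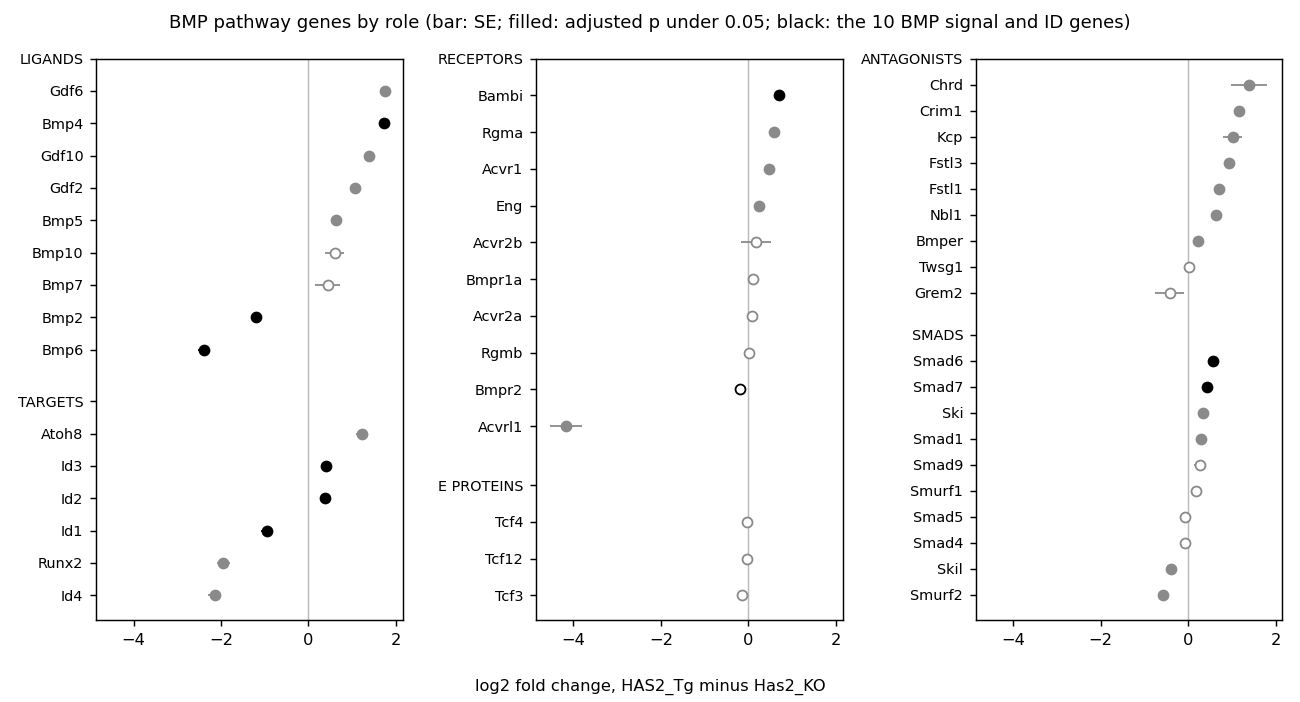
Log2 fold change of HAS2_Tg minus Has2_KO (horizontal axis, bars are SE) for the tested BMP pathway genes by role. Black points are the 10 genes of the set, grey points other genes of the pathway, and filled points passed an adjusted p of 0.05. Ligands and targets spread to both sides of 0, while the called antagonists all lie to the right.

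Bmpr2, the type II receptor for BMPs, had 184.6, 268.1 and 258.7 CPM in HAS2_Tg, against 256.6, 269.2 and 282.0 CPM in Has2_KO. Replicate 4 of HAS2_Tg was the low library and the other 2 lay inside the Has2_KO range. The log2 fold change was -0.18 (SE 0.12, 95% interval -0.44 to 0.07, adjusted p = 0.236), and it ranged from -0.28 to -0.03 with each library left out, the smallest being without HAS2_Tg replicate 4. With total counts it was -0.36 and passed (adjusted p = 0.0369), so the call for Bmpr2 depends on scaling.

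Bambi, the decoy that dampens BMP and TGF-beta receptors, was higher, with 44.4, 43.4 and 33.8 CPM in HAS2_Tg, against 23.7, 24.6 and 25.9 CPM in Has2_KO. All transgenic libraries were above all knockout libraries. The log2 fold change was 0.71 (SE 0.11, adjusted p = 8.16e-05). Expected counts of Bambi were not whole in every library (495.11 in HAS2_Tg replicate 4), and reads can be shared with the pseudogene Bambi-ps1, chosen after its values were seen, which had -0.39 (SE 0.14, adjusted p = 0.0348). The summed CPM of Bambi and Bambi-ps1 was 51.2, 49.4 and 40.9 in HAS2_Tg and 32.5, 32.9 and 34.6 in Has2_KO, which keeps the direction.

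Of 8 tested genes among the other receptors and co-receptors, 3 were higher, 1 was lower and 4 did not pass. The shares over all genes tested were 20.2% higher and 20.5% lower. The type I receptor Acvr1 (log2 fold change 0.47, SE 0.07) and the co-receptor Rgma (0.58, SE 0.08) were higher. Eng, a co-receptor for Gdf2 and Bmp10, had 0.24 (SE 0.08, adjusted p = 0.022), and with total counts 0.06 (adjusted p = 0.51). The Eng call also ended without Has2_KO replicate 7 (adjusted p = 0.102) and without Has2_KO replicate 9 (adjusted p = 0.0878). Acvrl1, the endothelial type I receptor for Gdf2 and Bmp10, had 0.359, 0.349 and 0.262 CPM in HAS2_Tg, against 3.95, 7.36 and 6.71 CPM in Has2_KO (log2 fold change -4.17, SE 0.36, adjusted p = 2.55e-07). These levels rest on 3 or 4 counts per HAS2_Tg library. Endothelial markers were lower in the same libraries, and their part in the Acvrl1 difference was not tested.

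The inhibitory SMADs were both higher in HAS2_Tg. Smad6, which acts mainly on the BMP branch, had 112.8, 121.1 and 95.6 CPM in HAS2_Tg, against 75.0, 73.6 and 74.3 CPM in Has2_KO. The transgenic libraries were spread and the knockout libraries nearly equal, without overlap. The log2 fold change was 0.56 (SE 0.09, adjusted p = 0.000116). Smad7, which also blocks TGF-beta receptors, had 124.1, 127.2 and 119.0 CPM in HAS2_Tg, against 91.8, 88.7 and 95.8 CPM in Has2_KO. Its groups did not overlap either, and the log2 fold change was 0.42 (SE 0.07, adjusted p = 0.000277). Smad6 took 57.1% ± 2.16 of the summed FPKM of the pair in HAS2_Tg and 54.8% ± 0.87 in Has2_KO, and these shares overlapped between the groups. Both genes also passed with total counts, at 0.39 for Smad6 and 0.25 for Smad7.

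Of 8 tested signalling SMADs and SMAD regulators, 2 were higher, 2 lower and 4 did not pass (20.2% higher and 20.5% lower over all genes tested). Smad1, a BMP-activated SMAD, had 0.30 (SE 0.08, adjusted p = 0.00871), and Ski, a repressor of SMAD transcription, 0.33 (SE 0.07). With total counts Smad1 had 0.13 (adjusted p = 0.207) and Ski 0.16 (adjusted p = 0.0771), so neither call held and the list stood at 0 higher and 4 lower. That scaling put 11.3% of all genes tested as higher and 37.1% as lower. The Smad1 call also ended without Has2_KO replicate 7 (adjusted p = 0.0568). The ubiquitin ligase Smurf2 had 60.1, 88.4 and 84.9 CPM in HAS2_Tg, against 111.7, 117.9 and 116.4 CPM in Has2_KO (-0.57, SE 0.12). Skil, another SMAD repressor, had -0.40 (SE 0.09).

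The ID genes split. Id1 was lower and Id2 and Id3 were higher in HAS2_Tg. Id1, a classic early BMP target, had 9.42, 8.11 and 8.65 CPM in HAS2_Tg, against 15.0, 19.6 and 16.1 CPM in Has2_KO. All transgenic libraries were below all knockout libraries, and the log2 fold change was -0.95 (SE 0.13, adjusted p = 3.30e-05). These values rest on 105, 93 and 99 counts in HAS2_Tg and 197, 259 and 211 counts in Has2_KO. Id1 is also expressed by endothelial cells, whose markers were lower in the same libraries, and their part in the difference was not tested.

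Id2, which is broadly expressed, had 124.5, 119.6 and 109.1 CPM in HAS2_Tg, against 81.1, 95.9 and 93.0 CPM in Has2_KO (log2 fold change 0.39, SE 0.09, adjusted p = 0.00207). Id3, the ID gene with the highest FPKM, had 161.3, 153.3 and 122.0 CPM in HAS2_Tg, against 109.2, 110.3 and 108.7 CPM in Has2_KO (log2 fold change 0.41, SE 0.09, adjusted p = 0.00287). Neither gene overlapped between the groups. All 6 genes that were higher in HAS2_Tg had their lowest transgenic value in replicate 6. With total counts Id2 had 0.21 (adjusted p = 0.0525) and Id3 0.24 (adjusted p = 0.0522), so these calls depend on scaling, while that of Id1 held at -1.13.

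Of the summed FPKM of the 3 ID genes, Id1 took 3.79%, 3.44% and 4.33% in HAS2_Tg, against 8.58%, 10.3% and 8.78% in Has2_KO. This share was lower in every transgenic library and does not depend on scaling. Id2 took 36.1% ± 1.70 in HAS2_Tg and 34.3% ± 1.64 in Has2_KO, and Id3 took 60.0% ± 2.11 in HAS2_Tg and 56.5% ± 2.29 in Has2_KO (SD, n = 3), with overlap between the groups for both. The summed FPKM of the 3 was 241.3 ± 26.9 in HAS2_Tg and 218.4 ± 9.32 in Has2_KO.

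**Figure D4:**
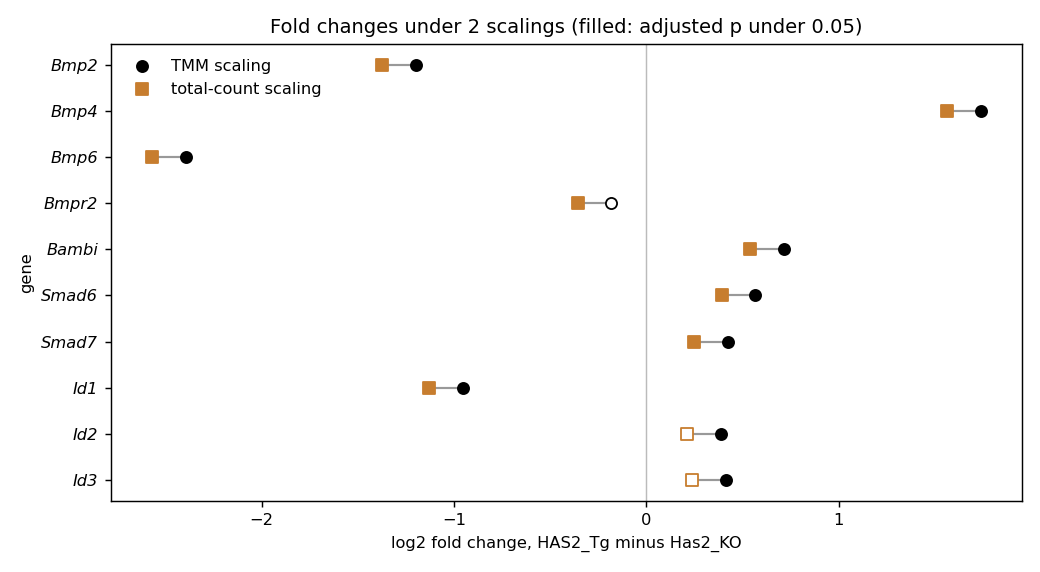
Log2 fold change of HAS2_Tg minus Has2_KO (horizontal axis) for the 10 genes with TMM scaling (circles) and total-count scaling (squares), filled where the adjusted p was under 0.05. All 10 keep their sign. Id2 and Id3 pass with TMM only, and Bmpr2 passes with total counts only.

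Other BMP targets moved in both directions. Of a list of 8, 6 were listed and 3 tested. Atoh8, a transcription factor induced by BMPs in endothelium and hepatocytes, had 180.3, 148.0 and 125.9 CPM in HAS2_Tg, against 56.9, 71.3 and 66.6 CPM in Has2_KO (log2 fold change 1.22, SE 0.12, adjusted p = 4.56e-06). Id4, the remaining ID gene, had 2.60, 2.62 and 2.36 CPM in HAS2_Tg, against 11.6, 11.0 and 11.1 CPM in Has2_KO (-2.15, SE 0.15, adjusted p = 2.97e-08). Runx2, the osteoblast transcription factor, had 4.75, 4.97 and 3.93 CPM in HAS2_Tg, against 15.6, 18.4 and 18.6 CPM in Has2_KO (-1.94, SE 0.14). Macrophage and endothelial markers were lower in the same libraries as Id4 and Runx2. So were the 4 cholangiocyte markers tested, of 9 on that list, with Spp1 at the highest level. The part of these markers in the Id4 and Runx2 differences was not tested. Id4 and Runx2 were lower with Id1, and Atoh8 was higher with Id2, Id3, Smad6 and Smad7, with no overlap between the groups for any of these genes. None of the E proteins that ID proteins bind passed, with log2 fold changes of -0.14 for Tcf3 (95% interval -0.30 to 0.02), -0.02 for Tcf4 (-0.19 to 0.14) and -0.02 for Tcf12 (-0.24 to 0.19). With total counts Tcf3 had -0.31 and passed (adjusted p = 0.00382).

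Secreted antagonists and modulators were higher in 7 of 9 tested cases, of 17 on the list, and lower in none. Over all genes tested, 20.2% were higher and 20.5% lower. With total counts 6 of the 7 calls held, the exception being Bmper (adjusted p = 0.563). The Bmper call also ended without HAS2_Tg replicate 5 (adjusted p = 0.0629). It ended too without Has2_KO replicate 7, 8 or 9 (adjusted p = 0.117, 0.0838 and 0.0782). Crim1, a membrane protein that binds BMPs, had 487.7 ± 22.5 CPM in HAS2_Tg and 216.6 ± 7.49 CPM in Has2_KO (log2 fold change 1.17, SE 0.07, adjusted p = 6.84e-09). The follistatin family members Fstl3 (0.95, SE 0.10) and Fstl1 (0.70, SE 0.07) and the DAN family member Nbl1 (0.63, SE 0.10) were also higher. The classic antagonists Nog and Grem1, chosen after their values were seen, were under 1 CPM in every library and were not tested. Another, Chrd, also chosen after its values were seen, was called higher (log2 fold change 1.40, SE 0.41, adjusted p = 0.013). It had 21, 15 and 10 counts in HAS2_Tg and 4, 8 and 8 counts in Has2_KO. The Chrd call ended without HAS2_Tg replicate 4 (adjusted p = 0.0635) and without Has2_KO replicate 7 (adjusted p = 0.0682). Grem1 was not listed in HAS2_Tg replicates 5 and 6. Over all 58 other pathway genes, 52 were listed, 37 tested, 17 called higher and 5 called lower, with a median log2 fold change of 0.24. With total counts 13 were higher and 8 lower, while 11.3% of all genes tested were higher and 37.1% lower. The 15 listed but untested genes reached at most 1.14 CPM in any library, and the other 6 were not listed.

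In FPKM the ID genes Id3 and Id2 ranked first and second among the 10 genes in each group, with Id3 at 145.1 ± 20.9 in HAS2_Tg and 123.2 ± 1.06 in Has2_KO, and Id2 at 86.9 ± 5.86 in HAS2_Tg and 75.0 ± 6.43 in Has2_KO (SD, n = 3). Below them the order differed. In HAS2_Tg it ran Bmp4 (39.9), Smad6 (34.6), Bmp2 (27.6), Smad7 (25.9), Bmpr2 (19.9), Id1 (9.22), Bambi (7.50) and Bmp6 (1.30), where Bmp4 and Smad6, and Bmp2 and Smad7, overlapped in their library values. In Has2_KO it ran Bmp2 (71.5), Smad6 (26.4), Bmpr2 (25.4), Smad7 (21.8), Id1 (20.2), Bmp4 (13.5), Bmp6 (7.69) and Bambi (5.16), where Id2 and Bmp2, Smad6 and Bmpr2, and Smad7 and Id1 overlapped. Bmp4 thus had rank 3 in HAS2_Tg and rank 8 in Has2_KO.

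Variation between libraries was larger in HAS2_Tg for 7 of the 10 genes. The coefficient of variation of CPM ran from 3.35% to 19.3% in HAS2_Tg and from 0.743% to 14.4% in Has2_KO. The highest was that of Bmpr2 in HAS2_Tg and that of Id1 in Has2_KO. The share of all genes tested with larger variation in HAS2_Tg was not computed. Across genes, chi-square over degrees of freedom for library pairs ran from 6.24 to 31.5 in HAS2_Tg and from 2.31 to 3.17 in Has2_KO. The wider spread is therefore not shown to be particular to the 10 genes.

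The 3 ligands were also set beside 10221 tested genes with a mean of at least 5 CPM. Genes with predicted or clone-type symbols, or with no symbol, were left out. The measure was the root mean square difference of centred log2(CPM + 1) values over the 6 libraries. The genes most like Bmp2 were Btg1 (0.030), Glrx (0.036) and Lrp8 (0.056). Those most like Bmp4 were Gpat2 (0.033), Lims2 (0.064) and Dmpk (0.069), and those most like Bmp6 were Fam20c (0.096), Akr1b8 (0.099) and Stk10 (0.105). These values describe the 6 libraries only.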

How the data were processed

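RNA was sequenced in 3 HAS2_Tg and 3 Has2_KO libraries, grouped by their labels. Per the submitters' processing notes, RSEM and mm10 were used; versions, the aligner and strand handling are not given in the sources used here. Per the file headers, the authors deposited 2 values per gene: an expected count, an estimate of reads that can be fractional, and an FPKM value, scaled for length and depth. The files list no 0, so a gene missing from a library was set to 0 (12658 values). Of 17909 identifiers, 17857 were named through RefSeq's GRCm38 table.

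Expected counts were rounded and passed through filterByExpr, then TMM factors were computed. Every remaining gene entered the quasi-likelihood F test of edgeR (robust, both directions), and p-values were adjusted by Benjamini and Hochberg's method at 0.05. SE was derived from the fold change and F, and intervals are 95%. The script was tested on simulated counts. The 10 genes and all lists were chosen with earlier results of these data known. Beside Has2 and the 10 genes, the text names up to 4 genes per pathway list by adjusted p, leading markers and markers at 0, and the 3 genes closest to each ligand; other names are said to be chosen later. FPKM shares are descriptions without a test. The low-count filter passes a gene that is high in 1 group only, so counts over tested marker or pathway genes are partly set by it. Gene identifier 19791, unnamed in the reference, took 1.59% of counts in HAS2_Tg replicate 4 and at most 0.156% elsewhere. Chi-square over degrees of freedom was at least 2.31 for every pair of libraries in a group, so no pair matched within counting noise; this does not show whether they came from separate mice.

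As alternatives, scaling was done by total counts, by upper quartiles or by the size factors of DESeq2. The filter was dropped, or tightened to a mean of 5 CPM with 1 CPM in all libraries of either group. The Wald test of DESeq2 and limma on FPKM replaced edgeR, limma with a pseudocount of 1 or 0.1 where at least 3 libraries reached 1 FPKM, or unfiltered with 1. Each library was left out, the threshold was set to 0.01, and changes were tested against 1.5-fold. Software was edgeR 4.0.16, DESeq2 1.42.0 and limma 3.58.1 under R 4.3.3, and scipy 1.17.1, numpy 2.4.6, pandas 2.3.3 and matplotlib 3.10.9 under Python 3.11.15.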

Additional observations from a re-analysis of the deposited data

How the results depend on the processing

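No paired analysis was possible because the groups share no replicate numbers. Over 17 alternatives, the log2 fold changes of the 10 genes kept their sign in all 170 comparisons and their side of the threshold in 154; 13 lost the call and 3, all of Bmpr2, gained it. The calls of Id2 and Id3 ended with total counts and in all limma fits on FPKM. Of the 10 genes, 6 called higher became 1 in the test against a fold of 1.5, that being Bmp4. Other pathway genes called higher, 17 in all, were 11 with limma at either pseudocount and 6 against a fold of 1.5. Those called lower, 5 in all, were 8 with total counts, 9 with unfiltered limma and 3 against a fold of 1.5. Over all genes, 2625 higher and 2673 lower became 1477 and 4827 with total counts, 1399 and 4198 with limma on log2(FPKM + 1), 1376 and 4138 with log2(FPKM + 0.1), 1366 and 4596 with unfiltered limma, and 552 and 1045 against a fold of 1.5. With each library left out, Tcf4 ranged from -0.053 to 0.034 and Tcf12 from -0.118 to 0.088. Tcf4 turned positive without HAS2_Tg replicate 4, and Tcf12 without HAS2_Tg replicate 4 or Has2_KO replicate 8; neither passed there. The cause of these changes was not tested. FPKM shares with each library left out, added after seeing the data, moved by less than 1 SD in all 48 cases. A mean of 3 libraries cannot move by 1 SD when 1 of them is left out, so this does not test the shares. Counting precision limits genes of few reads, such as Acvrl1 with 3 or 4 counts per HAS2_Tg library.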
